A study of Mus musculus with 14 samples.

Results

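GW3965 together with LPS was compared with no treatment in mouse macrophages, on 2 arrays of each group. LPS (lipopolysaccharide) is a bacterial cell wall component that binds the receptor TLR4, and GW3965 is a synthetic agonist of the liver X receptors (LXRs). The arrays titled GW3965 + LPS 1 and 2 and No treatment 1 and 2 make up 4 of the 14 arrays of the series. Of 10012 deposited probes, 9486 entered the comparison, and the others had a missing value (115) or were too dim (411). The cells were thioglycollate-elicited macrophages, that is, cells drawn into the peritoneum by an irritant broth, from female C57BL/6 mice aged 6 weeks. The series holds 7 groups of 2 arrays, and the LPS group without an agonist is used below for values set side by side. No group received GW3965 without a stimulus. The sources used here do not state the doses or the duration of treatment, or whether a replicate was 1 mouse or a pool. The title of the series names repression of Toll-like receptor responses by LXRs and PPARγ as its subject, and this comparison asks which part of the LPS response was present while GW3965 was there as well.

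TLR4 signals through one adaptor to NF-kB and MAP kinases, which switch on cytokine and chemokine genes, and through another to the factor IRF3, which switches on interferon-β. Interferon-β is secreted, acts back on the cells and induces a large set of antiviral genes. LXRs are sterol-sensing nuclear receptors that pair with RXR, raise genes of cholesterol efflux and fatty acid synthesis, and are known in macrophages for lowering inflammatory gene expression.

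Levels below are log2 intensities on arrays that the authors had scaled to a median intensity of 1, so a level of 0 is the array median. Values were raised to a floor of -3.87 on that scale, and a level at the floor is a bound. No detection calls were used, so levels close to the floor were not shown to lie above background, and levels are not compared between probes. The arrays fell into 2 sets of 7, called set A and set B, with 1 array of each group in each set. The 10th percentile of intensity was 0.137 to 0.271 in set A and 0.0549 to 0.0833 in set B. Where a group has 2 values they are those of set A and set B in that order, which for these groups and for LPS are the arrays numbered 1 and 2. A log2 fold change is the mean over both sets of the difference within a set, with the standard error (SE) of a limma fit to all 14 arrays that holds the set as a block. The word called is kept for probes with an adjusted p under 0.05 (Benjamini-Hochberg, 9486 probes). The precision of each value is limited by there being 2 arrays to a group.

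Some arrays of stimulated cells stood apart from the others at a small number of probes. On GW3965 + LPS 1 30 probes were at least 4-fold below all 5 other stimulated arrays of set A, against 0 to 9 probes for the other stimulated arrays compared within their set. In the other direction, LPS 2 had 22 probes at least 4-fold above all 5 others of its set, GW3965 + LPS 1 had 6 and GW3965 + LPS 2 had 5, and 2 arrays not described here had 16 and 28. Of the 30 probes, 10 were called lower than untreated, among them the probes of Sdf2l1 and Dio2.

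Levels of marker genes of macrophages and of other cells are given for each group, and they do not measure the share of a cell type. The lysozyme gene Lyz2, a marker of macrophages, had levels of 10.46 and 10.17 in GW3965 + LPS cells, against 10.79 and 9.96 in untreated cells. The intensities of the 17 macrophage markers tested, summed and then put on the log2 scale, came to 11.67 and 11.49 in GW3965 + LPS cells, against 12.33 and 11.27 in untreated cells, while 1 of them, the Fc receptor gene Fcgr1, was at the floor on 1 array of each group. Such sums are not compared between lists, which differ in their probes and in size. Summed levels of the markers of other cells were, for example, 5.67 and 5.86 for 12 B cell markers in GW3965 + LPS cells. In untreated cells the B cell sums were 5.44 and 5.44. For 14 T and NK cell markers the sums were 4.77 and 5.14 in GW3965 + LPS cells and 5.54 and 4.87 in untreated cells. Cd3e was at -0.91 and -2.73 in GW3965 + LPS cells and at -1.64 and -3.87 in untreated cells. The lists for neutrophils (8 tested), mast cells and eosinophils (10), dendritic cells (4), fibroblasts and mesothelium (14), and erythroid cells and platelets (6) summed to 3.74 to 5.20 in GW3965 + LPS cells and to 3.43 to 5.74 in untreated cells. Members of these lists that passed the test were Gzmb (+1.79) and Cd247 (-0.93) of the T and NK cell list, Camp (+3.55) and Ltf (-1.98) of the neutrophil list, Pdgfrb (+1.72) and Krt19 (-1.45) of the fibroblast and mesothelial list, and Ccr7 (+2.03) of the dendritic cell list. Of these, Camp kept its call under every alternative. Without GW3965 + LPS 1, Gzmb was at +1.21, Cd247 at -0.72, Krt19 at -0.74 and Ccr7 at +1.52, and without untreated 1 Pdgfrb was at +1.56 and Ltf at -1.97, none of them called, and each lost its call without at least 1 other array of the 4 as well. No member of the B cell, mast cell and eosinophil, or erythroid and platelet lists passed. The part of other cells in the results was not tested, and in RNA from whole samples fewer cells of a type and less RNA per cell cannot be told apart.

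With GW3965 present, LPS-treated cells differed widely from untreated cells. Of 9486 probes, 1578 were called (16.6%), 811 higher (8.55%) and 767 lower (8.09%), and 2951 had an unadjusted p under 0.05. The increases were larger than the decreases: 133 called probes were at least 8-fold higher and 31 at least 8-fold lower. Of the called probes 1426 differed at least 2-fold, 749 of them higher and 677 lower. The median log2 fold change of all probes was +0.13. Without the block the same fit called 580 probes, and with the number in the array titles as the block it called 906, and 735 were called without GW3965 + LPS 1 and 770 without untreated 1. Quantile normalization put the median of all probes at -0.06 and left 45.8% of 1577 calls higher, against 51.4% of the calls above.

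**Figure D1:**
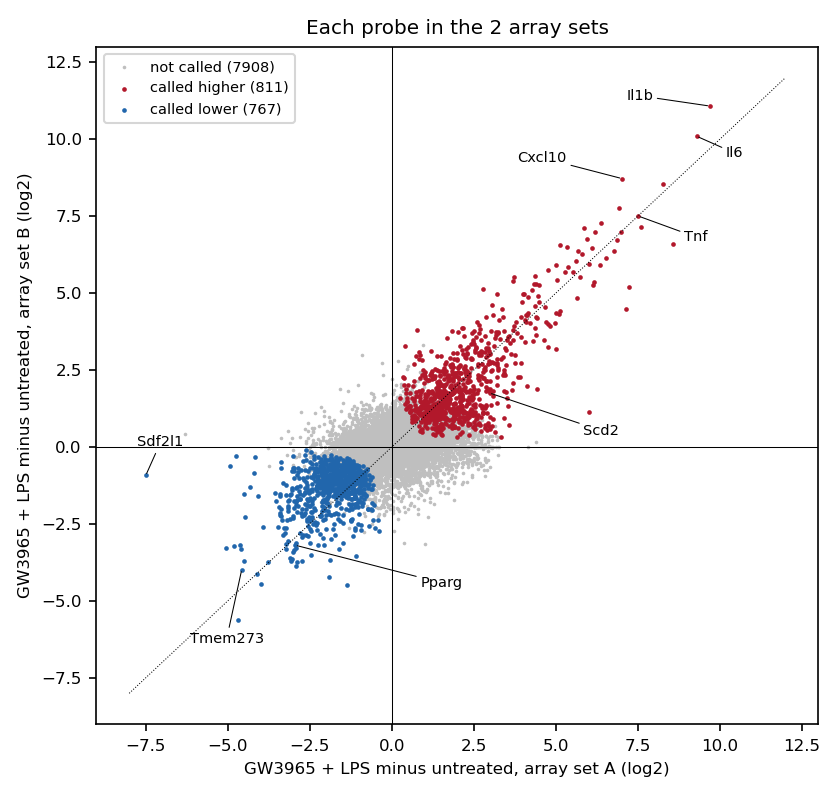
Each point is a probe, placed by its log2 difference between GW3965 + LPS and untreated in array set A (horizontal axis) and in array set B (vertical axis). Red points were called higher (811) and blue points lower (767), grey points were not called, the dotted line marks equal differences, and Sdf2l1 lies far from that line.

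The largest increases were those of inflammatory cytokine genes. Il1b, which encodes interleukin-1β, had levels of 10.36 and 9.69 in GW3965 + LPS cells, 10.85 and 9.63 in LPS cells, and 0.67 and -1.39 in untreated cells. It rose by 10.39 (SE 0.59, adjusted p = 2.6e-08) over untreated. Both GW3965 + LPS arrays stood far above both untreated arrays and within the range of the LPS arrays. Il6, an inducer of the acute phase response, was at 7.65 and 7.29 in GW3965 + LPS cells, 9.13 and 8.17 in LPS cells, and -1.66 and -2.80 in untreated cells. Its rise of 9.70 (SE 0.33, adjusted p = 4.5e-10) left both arrays below both LPS arrays, but the difference from LPS of -1.18 did not pass (adjusted p = 0.22). Il12a, the p35 subunit of interleukin-12, was at 7.23 and 6.87 in GW3965 + LPS cells, 7.87 and 6.86 in LPS cells, and -1.04 and -1.68 in untreated cells, a rise of 8.41 (SE 0.30). Tnf was at 6.91 and 7.24 in GW3965 + LPS cells, 6.78 and 7.22 in LPS cells, and -0.61 and -0.27 in untreated cells. Its rise over untreated was 7.51 (SE 0.33, adjusted p = 3.5e-09), and its difference from LPS was +0.07 (95% interval of the fit -0.64 to 0.78). Il1a, the other interleukin-1 agonist, rose by 7.59 (SE 0.72).

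Of 16 cytokine genes tested, 14 rose and none fell, with a median log2 fold change of +3.34 against +0.13 over the 8383 genes tested, of which 8.74% rose. Csf3 (+0.34) and Lif (-0.13) did not pass. The anti-inflammatory members Il10, at +1.65, and the receptor antagonist Il1rn, at +3.34, were among those that rose. Between 13 and 14 of the list were called higher in the 4 fits that each omitted 1 of these arrays. Il12b was not among the probes tested.

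The promoters of the 3 cytokine genes with the largest rises are shown as RefSeq windows of GRCm38.p6 from 250 bases before to 50 after the annotated start, 5′ to 3′, because NF-kB, which TLR4 activates, is known to act at such genes. Capitals mark a match to the NF-kB consensus on either strand.
Il1b, chr2:129371090-129371389, minus strand: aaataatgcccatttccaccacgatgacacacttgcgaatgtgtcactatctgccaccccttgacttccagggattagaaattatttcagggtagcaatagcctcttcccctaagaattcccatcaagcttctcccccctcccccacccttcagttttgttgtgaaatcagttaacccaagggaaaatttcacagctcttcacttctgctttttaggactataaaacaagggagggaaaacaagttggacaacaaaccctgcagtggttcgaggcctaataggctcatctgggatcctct
Il6, chr5:30012864-30013163, plus strand: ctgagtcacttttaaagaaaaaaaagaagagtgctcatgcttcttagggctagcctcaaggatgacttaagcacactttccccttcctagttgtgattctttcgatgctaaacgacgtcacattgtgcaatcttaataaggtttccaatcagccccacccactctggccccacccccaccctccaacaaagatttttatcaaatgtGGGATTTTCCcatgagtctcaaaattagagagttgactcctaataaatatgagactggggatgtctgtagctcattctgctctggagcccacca
Il12a, chr3:68690394-68690693, plus strand: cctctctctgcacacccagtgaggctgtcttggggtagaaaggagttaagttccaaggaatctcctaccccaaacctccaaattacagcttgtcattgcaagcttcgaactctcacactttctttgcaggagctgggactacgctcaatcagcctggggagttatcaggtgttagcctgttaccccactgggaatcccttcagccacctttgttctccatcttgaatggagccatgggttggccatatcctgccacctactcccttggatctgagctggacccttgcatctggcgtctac
The Il6 window holds 1 match, which begins 44 bases before the start and overlaps no other motif searched, and the windows of Il1b and Il12a hold none. Shares were counted by gene, and a gene holds a motif if any of its windows does. The NF-kB consensus was found in 6 of 30 genes (20%) of the cytokine and chemokine lists that have a window. It was in 56 of 586 (9.56%) of all genes called higher and 36 of 555 (6.49%) of genes called lower. Of all genes tested that have a window, 415 of 6710 (6.18%) held it. The AP-1 motif TGANTCA, searched on both strands, was in 8 of 30 genes (26.7%) of the cytokine and chemokine lists. It was in 7.68% of all genes with a window, and the Il6 window holds 1 match.

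Chemokine genes, whose products draw leukocytes along a gradient, also rose. Cxcl1, a neutrophil attractant, was at 7.72 and 8.22 in GW3965 + LPS cells, 9.15 and 7.69 in LPS cells, and 0.78 and 0.44 in untreated cells, a rise of 7.36 (SE 0.49, adjusted p = 1.1e-07). Cxcl10, an interferon-induced attractant of T cells, was at 5.77 and 5.85 in GW3965 + LPS cells, 9.08 and 7.82 in LPS cells, and -1.25 and -2.87 in untreated cells. Its rise over untreated was 7.87 (SE 0.38, adjusted p = 5.0e-09), while it was lower than with LPS by 2.64 (adjusted p = 0.0063): the GW3965 + LPS arrays lay between the other groups and overlapped neither. Ccl5 rose by 5.93 (SE 0.33), Ccl7 by 6.29 (SE 0.36) and Ccl2, the main monocyte attractant, by 5.26 (SE 0.35). Of 15 CC chemokines tested 10 rose and none fell (median +2.02), where 8.74% of all genes rose and 8.03% fell (median +0.13). Of 12 CXC and CX3C chemokines 6 rose (median +2.03), among them Cxcl9 (+4.70) and Cxcl16 (+3.04). Cxcl14 fell by 1.52 (SE 0.44), a call lost without GW3965 + LPS 1 (-1.26), untreated 1 (-1.29) or untreated 2 (-1.74).

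Effector genes followed the same direction. Ptx3, a soluble pattern-recognition protein, was at 3.74 and 3.27 in GW3965 + LPS cells, 4.73 and 3.49 in LPS cells, and at the floor on both untreated arrays, so it rose by at least 7.37. Ptgs2 (COX-2), the inducible prostaglandin synthase, was at 2.35 and 3.17 in GW3965 + LPS cells, 3.89 and 4.11 in LPS cells, and -3.87 and -3.80 in untreated cells, with 1 of the untreated arrays at the floor. Ptges, which makes prostaglandin E2 from the product of that enzyme, rose by 5.99 (SE 0.24). Nos2, the inducible nitric oxide synthase, was at 1.99 and 1.57 in GW3965 + LPS cells, 4.02 and 2.94 in LPS cells, and -0.03 and 0.26 in untreated cells. Its rise of 1.67 (SE 0.36, adjusted p = 0.0060) was lost as a call without GW3965 + LPS 1 (+1.45) or untreated 1 (+1.48), and its difference from LPS of -1.69 did not pass (adjusted p = 0.075). Arg1, an arginase that competes with it for arginine, was at -1.03 (adjusted p = 0.22). Of 26 effector enzymes and mediators tested, 18 rose and none fell (median +2.02), and 8 did not pass. Of all genes 8.74% rose and 8.03% fell (median +0.13).

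Genes of NF-kB feedback and some inhibitors of cytokine signalling rose beside these mediators. The feedback list holds inhibitors but also NF-kB subunits such as Rel and Relb, so its count is not a count of inhibitors. Of 17 NF-kB feedback genes 14 rose and none fell (median +2.26), led by the inhibitor Nfkbie (+4.32, SE 0.45), the signalling adaptor Traf1 (+4.20, SE 0.23) and Cflar (+4.12, SE 0.24), an inhibitor of caspase-8. Bcl10, Birc2 and Tnfaip3 (A20) did not pass, and their probes were at +0.47, +0.16 and -0.13. Among 23 inhibitors of cytokine signalling 10 rose and 3 fell (median +0.61), beside 8.74% and 8.03% of all genes. Socs1, a suppressor of JAK kinases, rose by 5.46 (SE 0.35) and Socs3 by 4.34 (SE 0.26), whereas Sigirr, a decoy-type inhibitor of interleukin-1 and Toll-like receptors, fell by 2.80 (SE 0.35) and the lipid phosphatase Inpp5d (SHIP1) by 1.78 (SE 0.30).

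In the Toll-like receptor pathway 8 of 23 members rose and 2 fell (median +0.77), and 1 or none was called lower without any 1 of the 4 arrays. Of all genes 8.74% rose and 8.03% fell. Tlr2 was at 7.67 and 6.72 in GW3965 + LPS cells and at 4.08 and 3.13 in untreated cells, a rise of 3.59 (SE 0.22). Cd14, the co-receptor that hands LPS on, rose by 2.21 (SE 0.29). Tlr3, the receptor for double-stranded RNA, was at 0.91 and 0.83 in GW3965 + LPS cells, 2.22 and 2.72 in LPS cells, and -1.43 and -0.14 in untreated cells. It rose by 1.65 (SE 0.35, adjusted p = 0.0048), a call lost without GW3965 + LPS 1 (+1.42) or untreated 1 (+1.10). Tlr4 itself was at 0.08 and 0.38 in GW3965 + LPS cells, 0.64 and 1.07 in LPS cells, and 1.26 and 1.43 in untreated cells. It fell by 1.12 (SE 0.35, adjusted p = 0.043), and leaving out any 1 of the 4 arrays ended that call, with values from -1.37 to -0.86.

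**Figure D2:**
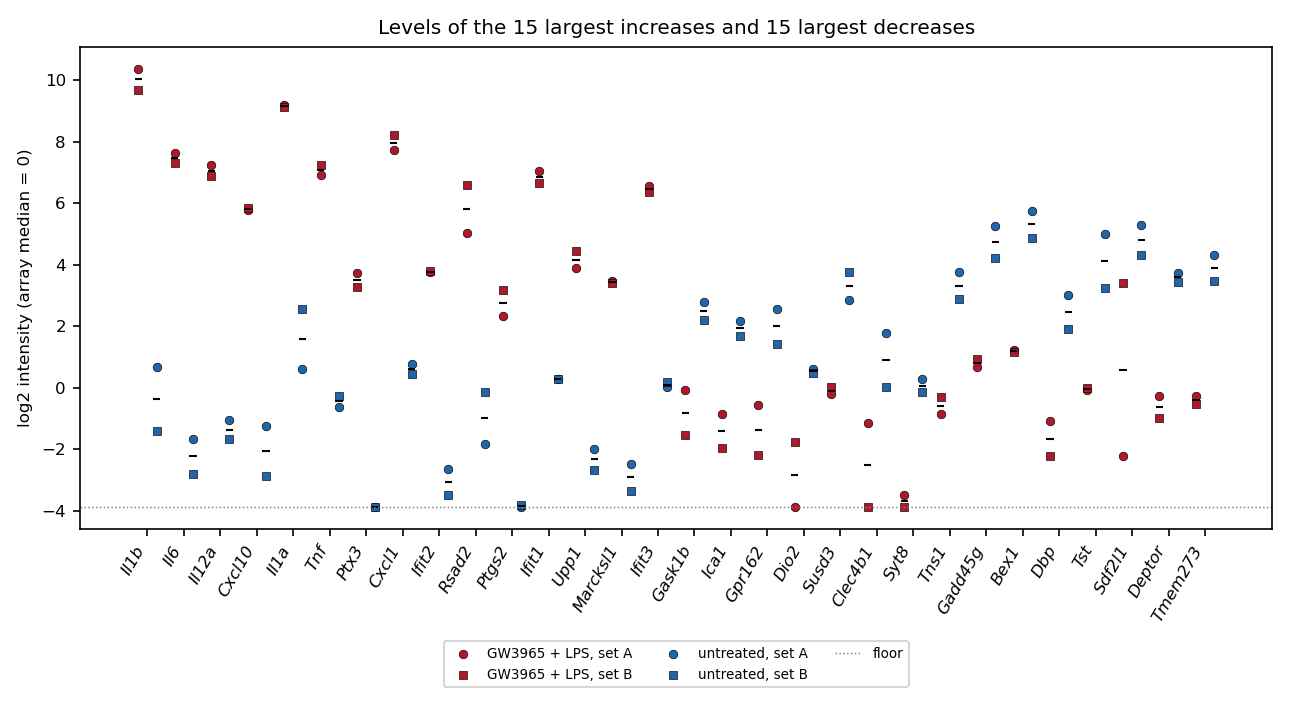
Log2 intensity (vertical axis) of the 15 genes with the largest increases and the 15 with the largest decreases among called genes, in GW3965 + LPS cells (red) and untreated cells (blue), 1 point per array with set A as circles and set B as squares, and the group mean as a bar. The groups do not overlap for any of the 30 genes, by the rule that chose them, and Sdf2l1 shows the widest spread between the 2 GW3965 + LPS arrays among these genes.

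Nearly every interferon-stimulated gene was higher with GW3965 and LPS than without treatment. Of 40 tested, 39 rose and none fell, with a median of +3.36. Over all genes 8.74% rose and 8.03% fell, with a median of +0.13. The count called higher was 35 to 36 in the 4 fits that each omitted 1 array, and 35 without the block. Ifit2, which binds viral RNA, was at 3.75 and 3.79 in GW3965 + LPS cells, 4.43 and 5.93 in LPS cells, and -2.63 and -3.50 in untreated cells, a rise of 6.83 (SE 0.50, adjusted p = 3.0e-07). Rsad2, which encodes the antiviral enzyme viperin, was at 5.05 and 6.58 in GW3965 + LPS cells, 5.93 and 7.76 in LPS cells, and -1.82 and -0.15 in untreated cells, a rise of 6.80 (SE 0.36). Ifit1, a sensor of RNA ends, was at 7.05 and 6.64 in GW3965 + LPS cells, 7.28 and 7.69 in LPS cells, and 0.28 and 0.28 in untreated cells, a rise of 6.57 (SE 0.38). In each of these 3 genes both GW3965 + LPS arrays stood above both untreated arrays, and in each set the GW3965 + LPS array stood below the LPS array. None of these 3 differences from LPS passed the test.

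The member that did not rise was Siglec1, a sialic acid receptor of macrophages. It was at -1.87 and 0.62 in GW3965 + LPS cells, 1.71 and 2.14 in LPS cells, and -0.16 and 0.92 in untreated cells. The difference from untreated was -1.0 (SE 0.44, adjusted p = 0.14), and the GW3965 + LPS arrays overlapped the untreated arrays. Siglec1 was called lower than with LPS, but its probe is 1 of the 30 that were low on GW3965 + LPS 1. Without that array the difference from untreated was -0.17, and without GW3965 + LPS 2 it was -1.84.

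The promoters of the 3 interferon-stimulated genes with the largest rises are shown in the same way, since ISRE elements are known from promoters of interferon-induced genes. Capitals mark the ISRE core, which is GAAA and GAAA with any 2 bases between them, on either strand.
Ifit2, chr19:34550444-34550743, plus strand: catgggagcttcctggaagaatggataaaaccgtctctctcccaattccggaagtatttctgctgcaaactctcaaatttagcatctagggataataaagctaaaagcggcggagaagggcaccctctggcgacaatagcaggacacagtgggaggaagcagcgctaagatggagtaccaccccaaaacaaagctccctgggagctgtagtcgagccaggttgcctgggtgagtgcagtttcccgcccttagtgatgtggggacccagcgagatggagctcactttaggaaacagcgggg
Rsad2, chr12:26456403-26456702, minus strand: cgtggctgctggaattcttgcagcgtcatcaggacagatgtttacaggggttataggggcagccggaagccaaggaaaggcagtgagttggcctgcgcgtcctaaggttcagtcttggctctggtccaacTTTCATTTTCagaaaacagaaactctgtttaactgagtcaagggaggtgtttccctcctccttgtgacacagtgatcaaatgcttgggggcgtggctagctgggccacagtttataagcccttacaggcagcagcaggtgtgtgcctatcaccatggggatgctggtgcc
Ifit1, chr19:34640639-34640938, plus strand: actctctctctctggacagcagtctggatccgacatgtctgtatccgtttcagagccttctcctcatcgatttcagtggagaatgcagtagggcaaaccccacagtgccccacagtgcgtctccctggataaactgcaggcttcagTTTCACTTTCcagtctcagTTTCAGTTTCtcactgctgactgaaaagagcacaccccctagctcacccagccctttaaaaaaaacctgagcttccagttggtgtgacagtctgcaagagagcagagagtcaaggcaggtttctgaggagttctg
The Ifit1 window holds 2 matches, beginning 104 and 85 bases before the start, and the Rsad2 window holds 1, beginning 120 bases before it. None of these overlaps another motif searched, and the Ifit2 window holds none. Counted by gene among those with a window, the ISRE core was in 14 of 31 (45.2%) of the interferon-stimulated list. It was in 16 of 96 (16.7%) of genes called at least 8-fold higher. It was in 52 of 586 (8.87%) of all genes called higher, 15 of 555 (2.70%) of those called lower, and 275 of 6710 (4.10%) of all genes tested. These are matches of letters in a fixed window, given as a description.

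Genes of antigen presentation rose in part. Of 26 tested, 11 rose and none fell, with a median of +0.87, where 8.74% of all genes rose and 8.03% fell. The costimulatory receptor Cd40 was at 6.92 and 7.02 in GW3965 + LPS cells, 7.95 and 7.46 in LPS cells, and 1.11 and 0.74 in untreated cells, a rise of 6.05 (SE 0.28). The peptide transporter Tap1 rose by 3.33 (SE 0.45) and the checkpoint ligand Cd274 (PD-L1) by 2.97 (SE 0.23). The class II genes H2-Aa (+0.10), H2-Ab1 (+0.07) and H2-Eb1 (-0.31) and the invariant chain Cd74 (-0.25) did not pass, and were chosen for mention after their values were seen. Among 35 cytokine and chemokine receptors 7 rose and 2 fell. The formyl peptide receptor Fpr2 rose by 5.71 (SE 0.26), and Ccr2, the receptor for Ccl2, fell by 2.30 (SE 0.51), a call lost without GW3965 + LPS 1 (-2.05) or untreated 2 (-1.39). Among 27 scavenger, phagocytic and Fc receptors 6 rose and 2 fell. Clec4e (Mincle), a receptor for mycobacterial glycolipid, rose by 5.48 (SE 0.25), and Gas6, the ligand that bridges apoptotic cells to the receptor Axl, fell by 2.19 (SE 0.34). Without GW3965 + LPS 1 or untreated 2 the list had 3 or 4 members called higher.

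**Figure D3:**
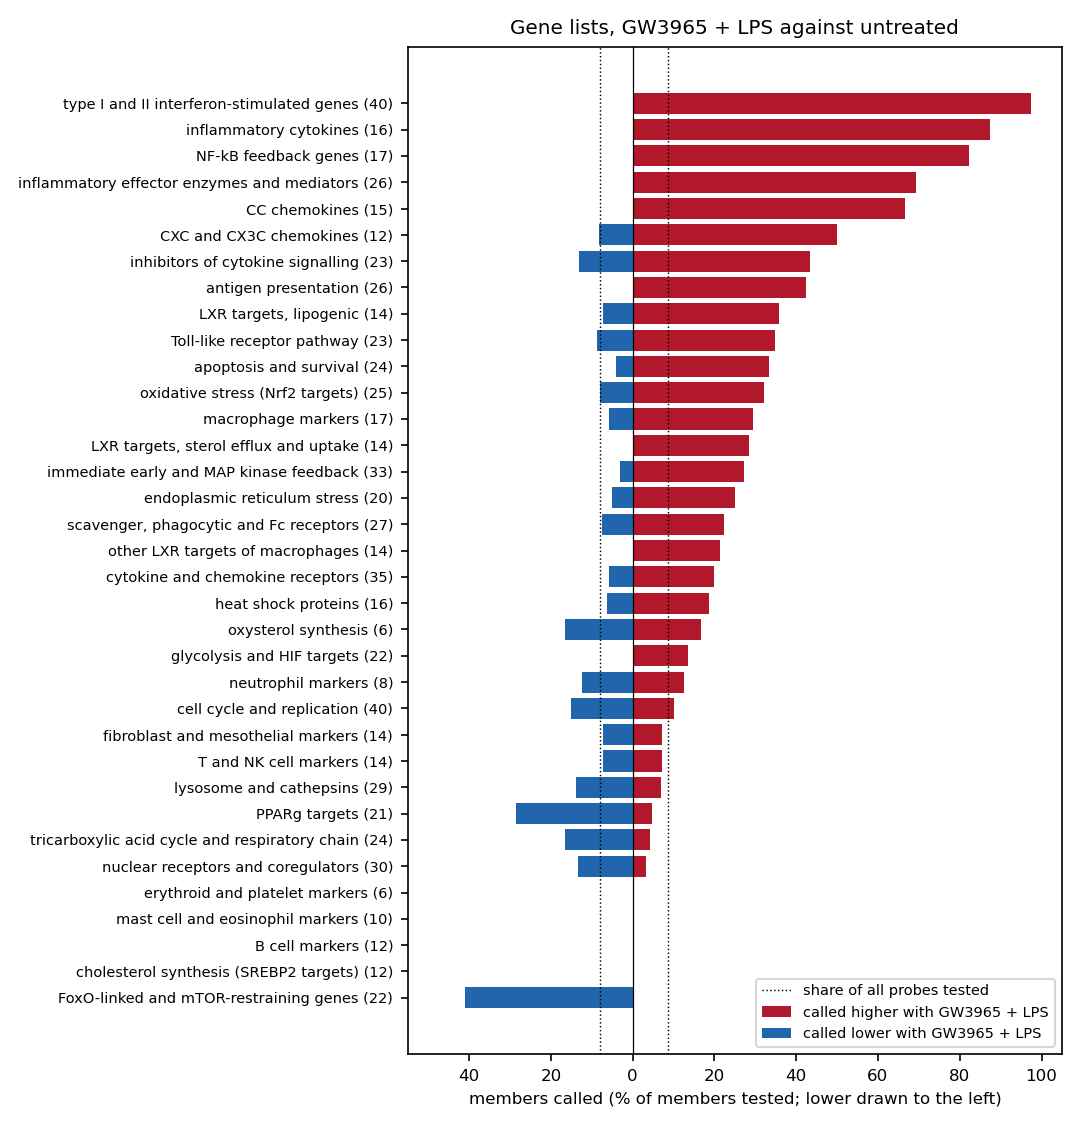
Share of the tested members of each gene list that was called higher (red, to the right) or lower (blue, to the left) with GW3965 and LPS than without treatment, with the number of tested members in brackets. Dotted lines mark the shares of all probes, 8.55% higher and 8.09% lower, and the interferon-stimulated list stands highest at 39 of 40.

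LXR target genes were higher in part. The sterol exporter Abca1 was at 1.12 and 1.29 in GW3965 + LPS cells, -1.57 and -0.26 in LPS cells, and -2.83 and -2.29 in untreated cells. It rose by 3.77 (SE 0.46, adjusted p = 5.0e-05) over untreated, of which LPS alone showed +1.65, and its difference from LPS of +2.12 did not pass (adjusted p = 0.076). Abcg1, which passes cholesterol to HDL, was at 5.68 and 5.35 in GW3965 + LPS cells, 3.12 and 3.35 in LPS cells, and 3.81 and 4.16 in untreated cells. It rose by 1.53 over untreated (SE 0.33, adjusted p = 0.0057) and was 2.28 higher than with LPS (adjusted p = 0.0067), so that the GW3965 + LPS arrays lay above all 4 arrays of the other 2 groups. Eepd1, an LXR target that promotes efflux, was at 3.99 and 4.03 in GW3965 + LPS cells, 1.40 and 1.33 in LPS cells, and 3.44 and 3.65 in untreated cells. It was 2.64 higher than with LPS (adjusted p = 0.00033) and did not pass against untreated (+0.46, 95% interval -0.09 to 1.02). Apoe, a lipoprotein that accepts cholesterol, was at 9.06 and 9.24 in GW3965 + LPS cells, 8.81 and 8.12 in LPS cells, and 9.64 and 8.22 in untreated cells, and passed neither test.

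Lipogenic targets showed the same split. Scd2, a stearoyl-CoA desaturase, was at 4.93 and 4.48 in GW3965 + LPS cells, 0.78 and 1.22 in LPS cells, and 1.95 and 2.72 in untreated cells. It rose by 2.37 over untreated (SE 0.63, adjusted p = 0.020) and was 3.71 higher than with LPS (adjusted p = 0.024), the largest increase over LPS among the 9 probes called higher there. Fasn, fatty acid synthase, was at 4.06 and 3.77 in GW3965 + LPS cells, 1.84 and 1.92 in LPS cells, and 2.74 and 2.13 in untreated cells, a rise of 1.48 (SE 0.40, adjusted p = 0.021), and its second probe rose by 2.43 (SE 0.56, adjusted p = 0.0080). Srebf1, the transcription factor that drives fatty acid synthesis, was at -0.86 and -2.87 in GW3965 + LPS cells and at the floor on both LPS and both untreated arrays, so it rose by at least 2.00 over untreated (adjusted p = 0.025), and its difference from LPS did not pass (adjusted p = 0.22). Mid1ip1, an activator of acetyl-CoA carboxylase, was 1.76 higher than with LPS (adjusted p = 0.0066) and did not pass against untreated (+0.58). Tmem86a, also an LXR target, was at 2.90 and 3.22 in GW3965 + LPS cells, 1.53 and 1.85 in LPS cells, and 4.41 and 4.31 in untreated cells: it was below untreated by 1.30 (SE 0.27) and above LPS by 1.37 (adjusted p = 0.046).

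Against untreated, 8.74% of all genes rose and 8.03% fell. Of 14 tested efflux and uptake targets 4 rose over untreated and none fell (median +0.58). Of 14 lipogenic targets 5 rose and 1 fell (median +0.70). These lists were drawn up with earlier results of these arrays known, so their counts are not independent evidence. Of 14 other LXR targets of macrophages 3 rose and none fell (median +0.29). Cd5l, a secreted survival factor of macrophages, was at 6.00 and 5.85 in GW3965 + LPS cells, 3.60 and 3.37 in LPS cells, and 4.58 and 3.96 in untreated cells. It rose by 1.65 over untreated (SE 0.24, adjusted p = 0.00022) and was 2.44 higher than with LPS (adjusted p = 0.00033). Mertk, a receptor for apoptotic cells, was at +0.53 against untreated and did not pass (adjusted p = 0.42). None of 12 cholesterol synthesis genes passed in limma (median +0.08). Probes for the LXRs themselves, Nr1h3 and Nr1h2, were not among those tested. The calls of LXR targets against untreated rested on few arrays: leaving out 1 of the 4 left 1 to 2 efflux and uptake genes and 1 to 5 lipogenic genes called higher. Abcg1 lost its call without GW3965 + LPS 1 (+1.23) or untreated 1 (+1.43), Scd2 without GW3965 + LPS 1 (+1.89), untreated 1 (+2.14) or untreated 2 (+2.61), Fasn without GW3965 + LPS 1 (+1.31) or untreated 2 (+1.12), Srebf1 without GW3965 + LPS 1 (+1.22) or untreated 1 (+1.60), and Tmem86a without untreated 1 (-0.98), while Abca1 and Cd5l kept theirs under every alternative. The LXR element of the DR4 type is AGGTCA repeated after any 4 bases. It was found in 0 of 6710 genes with a promoter window, on either strand, so no share could be compared.

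**Figure D4:**
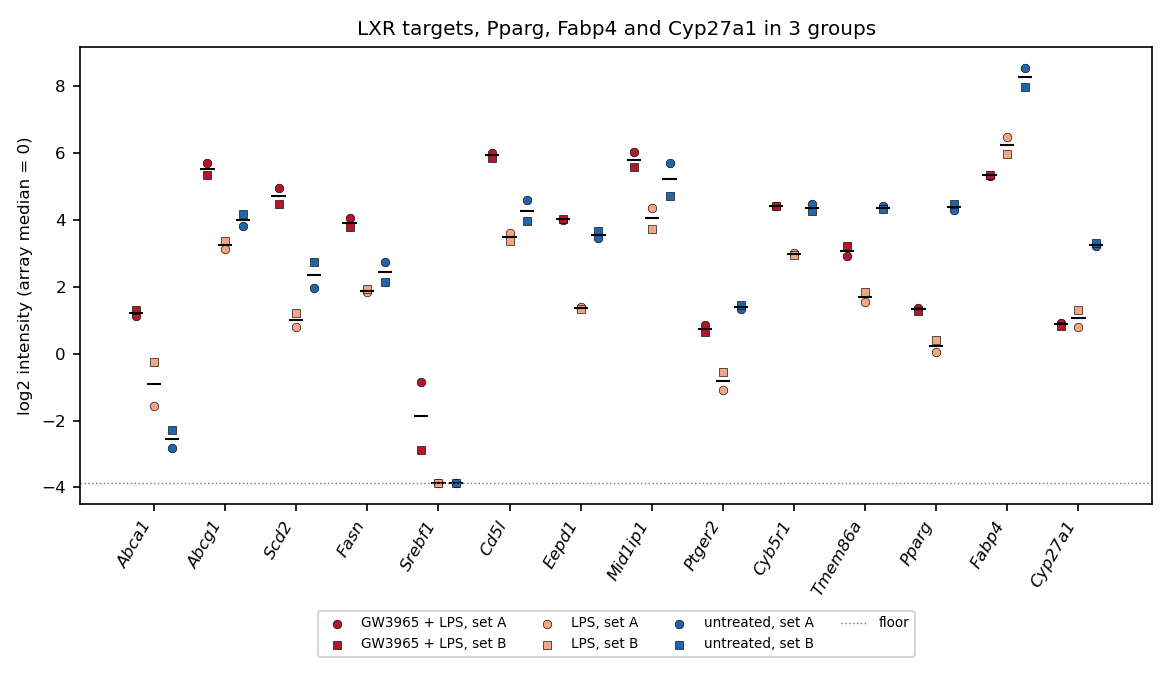
Log2 intensity (vertical axis) of 11 genes of the LXR target lists and of Pparg, Fabp4 and Cyp27a1 in GW3965 + LPS cells (red), LPS cells (orange) and untreated cells (blue), 1 point per array with set A as circles and set B as squares, bars at group means, and the floor as a dotted line. For Abcg1, Scd2, Fasn and Cd5l the red points lie above both other groups, and for Pparg, Fabp4 and Cyp27a1 the blue points lie highest.

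The difference between GW3965 + LPS and LPS was tested in the same fit and was called for 39 of 9486 probes (0.411%), with 931 at an unadjusted p under 0.05. LPS without the agonist differed from untreated at 1693 probes (17.8%), 914 higher (9.64%) and 779 lower (8.21%). Of the 39, 30 were lower with GW3965 (0.316%) and 9 higher (0.0949%). This contrast shares the GW3965 + LPS arrays with the comparison above, so the values against untreated are given beside it and not as separate evidence. Of the 30 probes lower than with LPS, 17 were still called above untreated, 10 were not called against untreated and 3 were below it. The count depends on single arrays: it was 107 without GW3965 + LPS 2, 12 without GW3965 + LPS 1, 10 without LPS 2 and 5 without LPS 1, and 3 without the block, 13 with the title number as the block and 6 without an intensity trend.

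Genes still above untreated included several that interferons induce. Slfn4, a Schlafen family gene of myeloid cells, was at 1.97 and 2.37 in GW3965 + LPS cells, 4.55 and 4.79 in LPS cells, and -2.10 and -1.76 in untreated cells. It was 4.10 above untreated and 2.50 below LPS (adjusted p = 0.0016). Isg20, an RNA exonuclease, was at 4.74 and 4.72 in GW3965 + LPS cells, 7.40 and 6.85 in LPS cells, and 1.37 and 0.24 in untreated cells, 3.92 above untreated and 2.39 below LPS (adjusted p = 0.0020). Gbp4, a guanylate-binding protein, was 4.88 above untreated and 1.94 below LPS (adjusted p = 0.0061), and Mx1, an antiviral GTPase, 6.14 above untreated and 1.31 below LPS (adjusted p = 0.046). Of the 40 interferon-stimulated genes, 5 were called lower than with LPS: Slfn4, Isg20, Gbp4, Mx1 and Siglec1. Siglec1 was not above untreated, and its probe is among those low on GW3965 + LPS 1. In the contrast with LPS 35 of the 40 lay below 0 (median -0.76, against +0.02 over all genes). The interferon-stimulated list too was chosen with earlier results of these arrays known, so its direction is not independent evidence. Ccl12, a monocyte attractant, was at -0.28 and 0.67 in GW3965 + LPS cells, 4.70 and 3.0 in LPS cells, and -1.95 and -2.89 in untreated cells, with a difference from LPS of -3.65 (adjusted p = 0.0045), the largest of the 30. Its probe is another of those low on GW3965 + LPS 1, and its difference from untreated of +2.61 was +3.67 without that array and +1.55 without GW3965 + LPS 2. Ch25h, which makes the LXR ligand 25-hydroxycholesterol, was at 0.94 and 0.42 in GW3965 + LPS cells, 4.31 and 3.97 in LPS cells, and -1.71 and -3.27 in untreated cells. It was 3.17 above untreated (adjusted p = 0.0039), a call lost without GW3965 + LPS 1 (+2.96) or untreated 2 (+2.35), and 3.46 below LPS (adjusted p = 0.038). Il15, a cytokine that sustains NK cells, was 2.10 above untreated and 1.44 below LPS, and its receptor chain Il15ra 1.69 above untreated and 1.43 below LPS. The death ligand gene Tnfsf10 (TRAIL) was 1.59 above untreated and 1.81 below LPS, the chemokine gene Cxcl11 3.32 above and 2.58 below, the activating receptor gene Klrk1 (NKG2D) 4.96 above and 1.76 below, and the matrix proteoglycan gene Vcan 4.19 above and 1.58 below.

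Other genes called between GW3965 + LPS and LPS were below untreated or were not called against it. Kdr, a VEGF receptor, was at 0.96 and 0.76 in GW3965 + LPS cells, 2.83 and 2.68 in LPS cells, and 2.06 and 1.78 in untreated cells. It was 1.06 below untreated (adjusted p = 0.0096), a call lost without GW3965 + LPS 1 (-1.06) or untreated 1 (-1.01), and 1.90 below LPS (adjusted p = 0.0040). Xdh, xanthine dehydrogenase, was at 3.08 and 3.23 in GW3965 + LPS cells, 4.65 and 4.79 in LPS cells, and 4.76 and 4.31 in untreated cells, so LPS without the agonist showed +0.19. Xdh was 1.38 below untreated, a call lost without untreated 1 (-1.19), and 1.57 below LPS. Pla2g2d, a secreted phospholipase, was 1.91 below untreated (SE 0.30) and 1.67 below LPS (adjusted p = 0.033). Ly86 (MD-1), a partner of the receptor CD180, was 1.60 below LPS (adjusted p = 0.046) and did not pass against untreated (-0.48, 95% interval -1.16 to 0.20). Cyb5r1, a cytochrome b5 reductase gene, was called 1.43 above LPS and was at +0.05 against untreated, and Ptger2, a prostaglandin E2 receptor, was called 1.58 above LPS and was at -0.65 against untreated. The mitotic kinase gene Melk and the transporter Abcb1a were likewise called below LPS, by 2.09 and 1.92, and not against untreated, at +1.19 and -0.97. Cyb5r1, Ptger2, Ly86, Melk and Abcb1a were named after their values were seen.

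**Figure D5:**
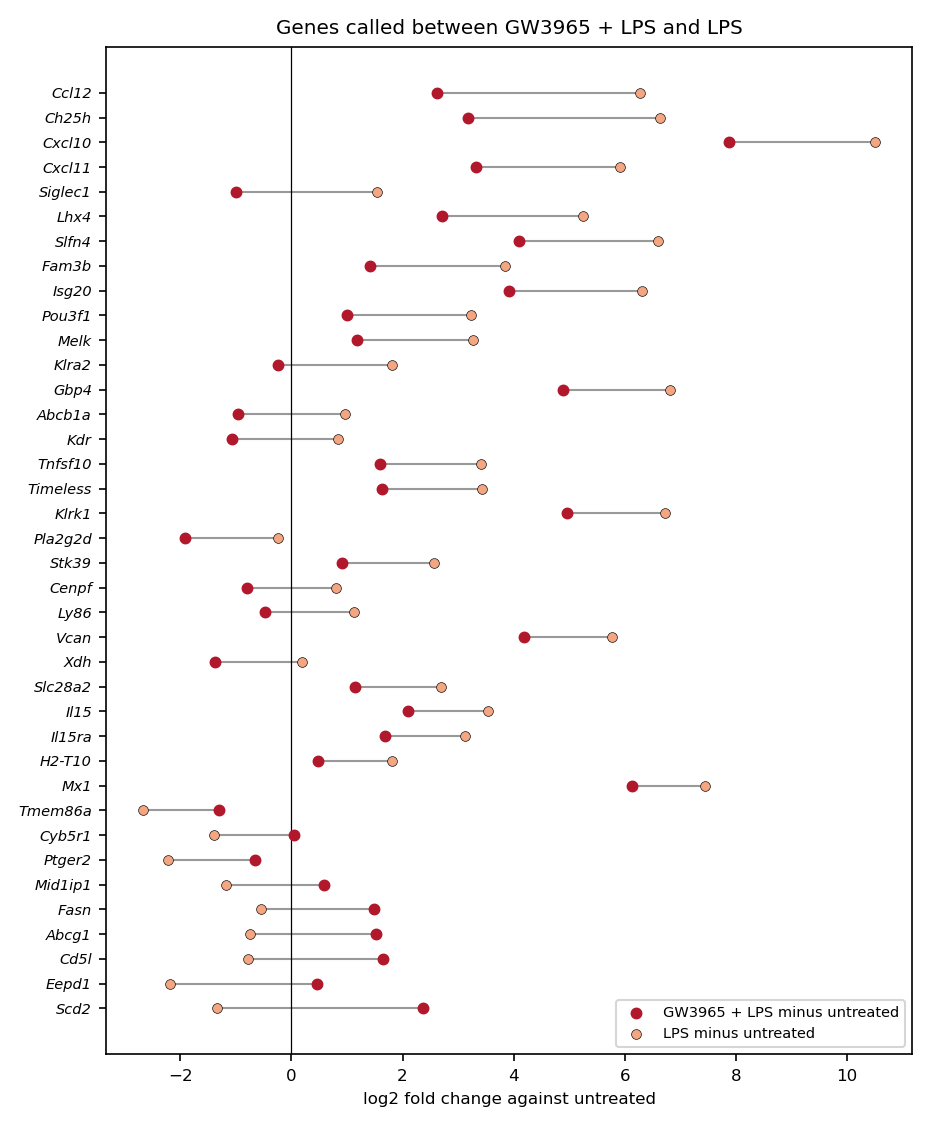
Log2 fold change against untreated (horizontal axis) of each named gene called between GW3965 + LPS and LPS, with GW3965 + LPS in dark red and LPS in light orange, joined by a line. Both points of a gene share the untreated arrays, and the 9 genes at the bottom, from Tmem86a to Scd2, are those higher with GW3965.

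Among the decreases of genes that could be named, the largest was that of Tmem273, a membrane protein gene, and 1 called probe with no gene symbol fell further, by 5.15. Tmem273 was at -0.26 and -0.52 in GW3965 + LPS cells, -0.28 and -1.55 in LPS cells, and 4.31 and 3.46 in untreated cells. It fell by 4.28 (SE 0.47, adjusted p = 2.0e-05). Deptor, an inhibitor of the kinase mTOR, was at -0.27 and -0.99 in GW3965 + LPS cells, 0.12 and -1.36 in LPS cells, and 3.72 and 3.45 in untreated cells, a fall of 4.22 (SE 0.52), and its second probe fell by 3.21. Dbp, a clock output transcription factor, was at -1.09 and -2.22 in GW3965 + LPS cells and 3.01 and 1.92 in untreated cells, a fall of 4.12 (SE 0.38). Gadd45g, a growth arrest gene, fell by 3.95 (SE 0.32), Bex1 by 4.11 (SE 0.37) and Tst, a mitochondrial sulfurtransferase, by 4.16 (SE 0.43). All of these had both GW3965 + LPS arrays below both untreated arrays, and all but Tns1, Clec4b1, Dio2 and Sdf2l1 of the 15 largest decreases stayed called under every alternative in which they were tested. Sdf2l1, an endoplasmic reticulum chaperone cofactor, was at -2.21 and 3.39 in GW3965 + LPS cells, 4.01 and 3.12 in LPS cells, and 5.29 and 4.31 in untreated cells. Its fall of 4.21 (SE 1.19) rested on GW3965 + LPS 1, since the difference without that array was -0.89 and not called. That call was also lost without untreated 1 (-3.69) or untreated 2 (-4.72), and the difference was -7.53 without GW3965 + LPS 2. Dio2, a thyroid hormone deiodinase, fell by 3.37 with GW3965 + LPS 1 at the floor, and without that array (-1.67) or untreated 2 (-2.97) it was not called. Tns1, a focal adhesion gene, fell by 3.91 (SE 0.96), a call lost without GW3965 + LPS 1 (-3.10), untreated 1 (-3.88) or untreated 2 (-3.94).

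Pparg, the nuclear receptor of adipogenesis and of lipid handling in macrophages, was at 1.36 and 1.29 in GW3965 + LPS cells, 0.04 and 0.42 in LPS cells, and 4.30 and 4.47 in untreated cells. It fell by 3.06 (SE 0.33, adjusted p = 1.9e-05), and its difference from LPS of +1.10 did not pass (adjusted p = 0.26). Fabp4, a fatty acid carrier and PPARγ target, was at 5.32 and 5.34 in GW3965 + LPS cells, 6.47 and 5.97 in LPS cells, and 8.54 and 7.97 in untreated cells, a fall of 2.93 (SE 0.34). Of 21 PPARγ targets 6 fell and 1 rose (median -0.21, against +0.13 over all genes, of which 8.03% fell and 8.74% rose). Lpl, which is an LXR target too, was the one that rose, by 0.79 (SE 0.26, adjusted p = 0.0498), a call lost without any 1 of the 4 arrays at values from 0.68 to 0.90. Without GW3965 + LPS 1 the list had 3 members called lower, and without untreated 1 it had 4. Cyp27a1, which makes the LXR ligand 27-hydroxycholesterol, was at 0.93 and 0.83 in GW3965 + LPS cells, 0.80 and 1.31 in LPS cells, and 3.20 and 3.30 in untreated cells, a fall of 2.38 (SE 0.27). Of 6 oxysterol synthesis genes tested it was the one that fell, and Ch25h, described above, the one that rose. Among 30 nuclear receptors and coregulators 4 fell and 1 rose, beside 8.03% and 8.74% of all genes. The class II deacetylase Hdac5 was among those that fell, by 3.25 (SE 0.40).

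Of 22 genes linked to FoxO factors or to restraint of mTOR, 9 fell and none rose, with a median of -0.55. Among all genes 8.03% fell and 8.74% rose. Beside Deptor and Hdac5, the phosphatidate phosphatase Lpin1 was at -0.58 and -0.40 in GW3965 + LPS cells, -1.83 and -1.76 in LPS cells, and 2.67 and 2.38 in untreated cells, a fall of 3.01 (SE 0.42). The FoxO and mTOR list was chosen with earlier results of these arrays known, so its direction is not independent evidence. Leaving out any 1 of the 4 arrays gave 6 of the 22 called lower.

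Counts in the metabolic and stress lists were smaller, where 8.74% of all genes rose and 8.03% fell. Of 24 genes of the tricarboxylic acid cycle and respiratory chain 4 fell and 1 rose (median -0.43), and without GW3965 + LPS 1 or untreated 1 none was called. Of 22 glycolysis and HIF targets 3 rose and none fell, a share not far above the 8.74% of all genes that rose. The phosphofructokinase Pfkp was at +1.96 (SE 0.36), and at +1.24 without untreated 1. Among 25 Nrf2 and oxidative stress genes 8 rose and 2 fell, with 5 to 7 called higher and 0 to 5 lower when 1 of the 4 arrays was left out. The mitochondrial superoxide dismutase Sod2 rose by 3.69 (SE 0.36), the cystine transporter Slc7a11 by 2.93 (SE 0.27) and Gclm, a subunit of the glutathione-making ligase, by 2.18 (SE 0.29). The inducible chaperones Hspa1a and Hspa1b rose by 3.57 (SE 0.31) and 3.05 (SE 0.28). These are near-identical genes, and their probes may detect both transcripts. Of 16 heat shock genes 3 rose and 1 fell, and the 1 that fell was Hspe1 (-1.14), whose groups overlap and which is named after its value was seen. In the endoplasmic reticulum stress list 5 of 20 rose and 1 fell, with 2 or 3 called higher without any 1 of the 4 arrays, and Asns, asparagine synthetase, rose by 2.91 (SE 0.34). Of 24 apoptosis and survival genes 8 rose and 1 fell, led by the kinase Pim1 (+3.01, SE 0.37) and the inflammatory caspase Casp4 (+2.83, SE 0.27).

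Of 40 cell cycle genes 4 rose and 6 fell (median -0.11), shares near those of all genes, of which 8.74% rose and 8.03% fell, with 2 called lower without untreated 1 and 3 without GW3965 + LPS 1 or untreated 2. Cyclin D2 (Ccnd2) rose by 3.96 (SE 0.50), the proliferation marker Mki67 by 3.74 (SE 0.24) and the cyclin-dependent kinase inhibitor Cdkn1a (p21) by 2.53 (SE 0.35). The checkpoint kinase Chek2 fell by 2.99 (SE 0.39). The mitotic genes Cdk1 and Top2a fell by 1.39 and 1.32, against the direction of Mki67. Cdk1 lost its call without GW3965 + LPS 1 (-1.18) or untreated 1 (-1.37), and Top2a without GW3965 + LPS 2 (-0.82), untreated 1 (-1.66) or untreated 2 (-0.98). Of 33 immediate early and MAP kinase feedback genes 9 rose and 1 fell (median +0.73), with 4 to 7 called higher and none lower when 1 of the 4 arrays was left out. The MAP kinase phosphatase Dusp4 rose by 3.16 (SE 0.30) and the kinase Mapkapk2, which stabilises cytokine mRNAs, by 3.09 (SE 0.31). In the lysosome and cathepsin list 2 of 29 rose and 4 fell, with none called lower without GW3965 + LPS 1 or untreated 1. The acid phosphatases Acp2 and Acp5 rose by 1.63 and 1.61, and Tfeb, the master regulator of lysosomal genes, fell by 1.69 (SE 0.38), a call lost without GW3965 + LPS 1 (-1.06) or untreated 1 (-1.22). Among the 17 macrophage markers 5 rose and 1 fell, with 8 above 0 and 9 below (median -0.06). Cebpb was at +2.39 (SE 0.33). Aif1, the member that fell, was at -1.65 (SE 0.45), and at -1.08 without GW3965 + LPS 1. Fewer markers were called higher without GW3965 + LPS 1 or without either untreated array.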

How the data were processed

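RNA of each sample was hybridised to 1 one-colour array, per the labels' protocols, from 0.5 µg of total RNA amplified with an oligo(dT) primer and labelled with biotin. The deposited values are linear intensities, 1 per probe and array, which the authors had scaled so that every array has a median of 1. The sources used here name no scanner, scaling method or background correction. Of 10012 probes, 8983 have 1 gene symbol in the platform annotation, 1 has several and 1028 have none.

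Intensities were raised to a floor of 0.0686, the 5th percentile of positive values, and log2 was taken. Probes with a missing value (115) and probes above their array's 20th percentile on fewer than 2 arrays (411) were left out. The 9486 others were fitted with limma 3.58.1 in R 4.3.3, with 7 group means and the array set as a block over all 14 arrays, an intensity trend and 6 residual degrees of freedom. Set A holds arrays whose 10th percentile of intensity is above 0.1. Arrays of 1 set deviated together in all 21 pairs of groups (correlations 0.354 to 0.674), whereas the numbers in the titles cross the sets in 1 group that is not described here. The fit was tested in 10 simulations with 200 of 9486 probes changed. It called 13.3% of the 2-fold and 75.2% of the 4-fold changes, and 5.5% of its calls were unchanged probes. A difference near 2-fold that did not pass may thus have been missed. More probes were called in the real data, so these shares need not hold there. Samples were grouped by their titles. P-values measure the spread between arrays, which the series describes as biological replicates, and without scan dates no other batch was examined.

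Genes have 1 probe, the brightest, and a second probe is given for Fasn and Deptor. Named genes are the 15 largest increases and decreases, and up to 3 per list and direction, among called genes whose groups do not overlap. Genes called against both untreated and LPS, and a fixed list of LXR, PPARγ, cytokine and interferon genes, are named too. Members, lists and tests were chosen with earlier results of these data known. Alternatives were other blocks, floors, filters and normalization, fewer arrays, and each replicate left out. Promoter windows are those of RefSeq (GRCm38.p6), found for 6710 of 8383 genes. Of several windows of a gene, the 1 with the most ISRE and NF-kB matches is shown, and motif shares count a gene by any of its windows. Figures were drawn with matplotlib 3.10.9 in Python 3.11.15.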

Additional observations from a re-analysis of the deposited data

How the results depend on the processing

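The counts of the comparison with untreated moved between alternatives. Against 1578 probes (811 higher, 767 lower), 580 were called without the array set as a block (392 higher, 188 lower). With the number in the array titles as the replicate block 906 were called (516 higher, 390 lower), 903 of them among the 1578. Leaving out each replicate in turn gave 735 to 1652 (461 to 834 higher, 274 to 818 lower), where the lone array left in a group is assumed to vary like the others. The count was 735 without GW3965 + LPS 1, 770 without untreated 1, 1077 without untreated 2 and 1652 without GW3965 + LPS 2. The other alternatives gave 1238 to 1674. Lower calls outnumbered higher ones with quantile normalization (723 higher, 854 lower), with the filter of 2 arrays above the median (721 higher, 779 lower) and with the floor at the 10th percentile (759 higher, 767 lower). For GW3965 + LPS against LPS, 39 probes were called (9 higher, 30 lower), 3 without the block (2 and 1), 13 with the replicate block (4 and 9), 80 with the 4 arrays compared alone (22 and 58) and 6 without the trend (2 and 4). Leaving out each replicate gave 5 to 107 (2 to 15 higher, 3 to 92 lower). For LPS against untreated, 1693 were called (17.8%), 749 without the block (500 higher, 249 lower), 1064 with the replicate block (431 lower), and 2873 with the 4 arrays alone (1397 higher, 1476 lower). Leaving out each replicate gave 934 to 1089 (573 to 679 higher, 355 to 465 lower). The cause of these shifts was not tested, and the smaller fits also hold fewer arrays. Of 149 named genes called against untreated, 89 kept the call in every alternative and 60 lost it in at least 1. Uncalled values changed sign for Apoe (-0.42 to 0.86 when 1 array was left out, below 0 without GW3965 + LPS 2 or untreated 2), Klra2 (-0.63 to 0.15, above 0 without GW3965 + LPS 2) and Cyb5r1 (-0.012 to 0.10, below 0 without untreated 2). Intensity without detection calls limits low probes, and values at the floor have no order.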
